A study of Mus musculus with 11 samples.

Results

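Complement is a set of blood and tissue proteins that tag microbes and damaged cells and call phagocytes to them. Described here are 9 of its genes in mouse colon, chosen by symbol from the 43346 genes of the deposited count table: C3, C4b, C1qa, C1qb, C1qc, Cfb, Cfd, Cfi and Cd55. Colonic RNA came from 5 germ-free and 6 humanized mice, all male Swiss Webster, singly housed in isolators and studied at 8 to 10 weeks of age. The humanized mice had started as germ-free mice and were gavaged at 4 to 5 weeks with 300 μL of stool suspension, so both groups share a germ-free origin and differ in the human microbiota. A single donor provided the stool, which limits the humanized group as a model of human microbiota at large. RNA was taken from colon tissue without sorting, so a lower level can mean fewer cells of a type or less RNA per cell, which cannot be told apart.

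Between 49097005 and 64148538 reads per germ-free mouse and between 39125290 and 54219854 per humanized mouse were counted on genes. Of all genes, 19863 passed the filter on low counts and were tested, and the median log2-fold change (LFC, humanized over germ-free) of these was 0.01. Levels are RPKM, normalized read counts relative to sequencing depth and to the deposited gene length, and FDR is the adjusted p-value of edgeR's exact test over all 19863 genes. A gene is called changed at FDR below 0.01. Tissue identity was checked with 11 epithelial marker genes, such as Epcam and Vil1, whose summed level ran from 9260 to 14769 CPM (read counts relative to sequencing depth) over the mice.

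Complement can be started along several pathways that meet at C3. In the classical pathway, C1q binds antibody or surfaces, and the proteases attached to it cleave C4 and C2. In the lectin pathway, sugar-binding proteins do the same through their own proteases, and in the alternative pathway factor B and factor D build a C3-cleaving enzyme that amplifies deposition already under way. Terminal components then assemble a pore in the target membrane, while factor I, the C1 inhibitor, and the membrane proteins CD55 and CD59 hold the cascade in check on host cells. In the gut, epithelial and stromal cells are known to make C3, tissue macrophages make C1q, and adipocytes are the best-known source of factor D, which is also called adipsin.

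Upstream sequences are shown for 3 of the genes because the members fell into sets that varied together from mouse to mouse, which is described further on. RefSeq promoters (GRCm38.p6) were given for 5 of the 9 members, namely C3, C1qb, C1qc, Cfd and Cd55. The 250 bases before each start were searched on both strands for TATAAA, for TTGCNNAA (a C/EBP core), for TTCNNNGAA (a STAT core), for AAANNGAAA (an interferon response core) and for the kappaB motif. These letters were found in 12.4%, 9.56%, 7.02%, 9.37% and 3.9% of 32851 RefSeq promoters of the same length. Among the 5 members, C3 held the C/EBP core from 45 to 38 bases before its start, C1qc held a kappaB match from 41 to 32 bases before its start, and no search matched in the windows of C1qb, Cfd or Cd55. Capitals mark these matches in the lines that follow, each on the minus strand and written 5′ to 3′. For C3 and C1qb the whole window is given, at chr17:57228137-57228386 and chr4:136886201-136886450, and for C1qc the 30 bases around the match, at chr4:136892936-136892965.
C3: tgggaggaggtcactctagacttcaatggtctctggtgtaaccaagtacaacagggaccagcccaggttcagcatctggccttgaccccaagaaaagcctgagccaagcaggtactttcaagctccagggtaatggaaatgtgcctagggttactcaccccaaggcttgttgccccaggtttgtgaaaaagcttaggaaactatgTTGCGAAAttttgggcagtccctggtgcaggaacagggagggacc
C1qb: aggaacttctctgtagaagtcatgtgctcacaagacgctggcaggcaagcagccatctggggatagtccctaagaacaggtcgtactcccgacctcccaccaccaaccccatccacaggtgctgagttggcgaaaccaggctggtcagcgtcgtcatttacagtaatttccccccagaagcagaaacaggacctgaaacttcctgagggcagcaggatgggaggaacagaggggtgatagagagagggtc
C1qc: tgtgggggagGGGGCTCTCCctgctctggg
The match in C1qc lies inside the gene as deposited, which begins upstream of the RefSeq start. A match is a run of letters and no measurement of binding.

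Of the 9 members, 8 passed the filter on low counts and Cfi did not. Cfb was lower in humanized mouse colon, the other 7 tested members did not reach the threshold, and none was higher. That is 1 of 8 in either direction, beside 19.3% of all tested genes, and 1 of 8 lower, beside 10.1% lower and 9.20% higher among all genes. The LFC was below 0 for all 8 tested members, with a median of −0.44. The groups did not overlap for Cfb alone, 1 of 8, while 18.4% of all tested genes had groups that did not overlap. These shares are near or under the background, so the count of calls is not by itself a result about complement.

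**Figure D1:**
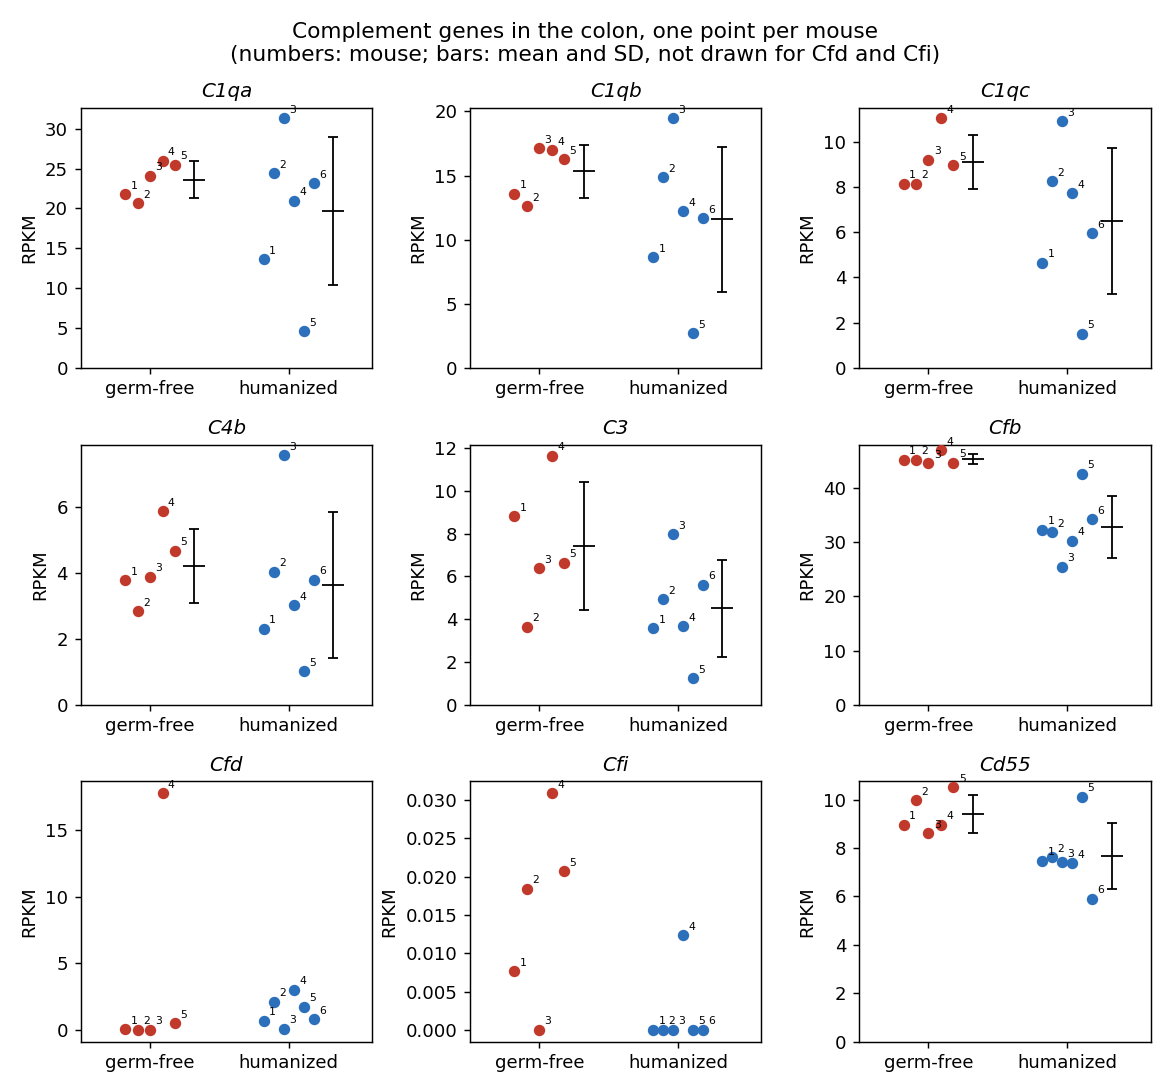
Level of each of the 9 complement genes (RPKM, linear axis) in every mouse, germ-free (n = 5) beside humanized (n = 6), with the group mean and SD except for Cfd and Cfi. For Cfb all 6 humanized mice lie below all 5 germ-free mice, whereas for C1qa, C1qb and C4b both the lowest and the highest of the 11 mice are humanized, and for Cfd 1 germ-free mouse at 17.8 RPKM stands far above the rest.

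The gene Cfb (mm10 chr17:34856374-34862518) encodes factor B, the serine protease precursor that joins C3b to form the C3 convertase of the alternative pathway. It had the highest level of the members. In the 5 germ-free mice it stood at 45.3, 45.3, 44.6, 47.0 and 44.7 RPKM, and in the humanized mice it ranged from 25.5 to 42.7 with a median of 32.1. Every humanized mouse was below every germ-free mouse. The mean was 45.4 ± 0.969 RPKM (SD, n = 5) in germ-free and 32.8 ± 5.67 RPKM (SD, n = 6) in humanized mice, 72.3% of the germ-free level (LFC −0.47 ± 0.10 SE, FDR 2.69e-04 by edgeR's exact test). A two-sided exact permutation test on the RPKM values gave p = 0.00433, where 0.00216 is the smallest that 5 against 6 mice can give. The germ-free mice were tightly grouped, with a coefficient of variation of 2.14%, against 17.3% in the humanized mice, or 10.8% without humanized mouse 5. The LFC turned to 0.38 with libraries scaled to macrophage markers and to 1.55 with fibroblast markers, below the median of all genes in both cases (0.73 and 1.83).

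The reads of Cfb are shared with an overlapping gene model. In the GENCODE M21 annotation of GRCm38, 2246 of its 2825 exon bases (79.5%) also belong to Gm20547, a read-through model on the same strand. Counts of Gm20547 were 0.903 to 0.923 times those of Cfb in germ-free mice and 0.938 to 1.02 times in humanized mice, so the counts of both were nearly equal in every mouse, and the level of Cfb cannot be separated from that of Gm20547. C2, the neighbouring protease that plays the part of factor B in the classical and lectin pathways, went the other way. It stood at 1.14, 0.982, 1.05, 1.51 and 1.08 RPKM in the germ-free mice and ranged from 1.52 to 3.49 in the humanized mice, with a median of 2.25, so the groups did not overlap here either. The mean rose from 1.15 ± 0.206 to 2.32 ± 0.770 RPKM (LFC 1.01 ± 0.22 SE, FDR 3.32e-04). With epithelial markers as the scale, C2 no longer passed (LFC 0.76, FDR 0.0259). The ratio of C2 to Cfb in RPKM, chosen after the values were seen, was 0.0217 to 0.0320 in germ-free and 0.0357 to 0.110 in humanized mice. No run of 101 bases, the read length, was found in both Cfb and C2. Whether C2 shares reads with Gm20547 was not checked. The level of C2 and its ratio to Cfb may therefore carry the limit given for Cfb.

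Cfd (chr10:79890853-79892656) encodes factor D, the protease that cleaves factor B once it is bound to C3b. Its level was set by 1 mouse. The germ-free mice stood at 0.0859, 0.0207, 0.0371, 17.8 and 0.527 RPKM, which are 5, 1, 2, 1023 and 34 reads, and the humanized mice ranged from 0.0914 to 3.03 RPKM with a median of 1.28. Germ-free mouse 4 was above all others, and 3 germ-free mice were below every humanized mouse. The mean was 3.68 ± 7.87 RPKM (SD, n = 5) against 1.42 ± 1.08 RPKM (SD, n = 6), an LFC of −1.37 ± 1.31 SE that did not pass (FDR 0.484), and without germ-free mouse 4 the LFC was 3.04 (FDR 0.0200). Adipocyte markers moved with this mouse: the summed level of 8 such genes was 105 CPM there, and between 21.0 and 35.6 CPM in all other mice. Smooth muscle markers were highest there too, at 3063 CPM against 263 to 1798 CPM in all other mice. Mesothelial markers, a list of 4 genes, were also highest there, at 8.26 CPM against 0.267 to 2.53 CPM in all other mice. Of the adipocyte list, Adipoq, Plin1, Lep and Retn did not pass the filter. The part of these cell types in the level of Cfd was not tested.

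C3 (chr17:57203970-57228136) encodes the central component, whose cleavage yields the opsonin C3b and the chemoattractant C3a. It stood at 8.81, 3.64, 6.39, 11.6 and 6.63 RPKM in the germ-free mice and ranged from 1.23 to 7.97 in the humanized mice, with a median of 4.31. The groups overlapped over most of their range. The mean was 7.42 ± 2.99 RPKM (SD, n = 5) against 4.50 ± 2.27 RPKM (SD, n = 6), a difference that did not pass (LFC −0.72 ± 0.38 SE, FDR 0.148; exact permutation p = 0.0952). This was the lowest LFC among the members after Cfd.

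C4b (chr17:34728380-34743882) encodes C4, the substrate that C1s cleaves in the classical pathway. It stood at 3.76, 2.84, 3.87, 5.86 and 4.66 RPKM in the germ-free mice and ranged from 1.02 to 7.55 in the humanized mice, with a median of 3.40. Both the lowest and the highest of the 11 mice were humanized. The mean was 4.20 ± 1.13 RPKM against 3.62 ± 2.22 RPKM (LFC −0.22 ± 0.38 SE, FDR 0.725). Without humanized mouse 5 the LFC was −0.02 (FDR 0.973), and without humanized mouse 3 it was −0.57 (FDR 0.171). Part of C4b is the same in its paralogue C4a, with which it shares 14.98% of its 101-base windows. Counts of C4a were 0.122 to 0.176 times those of C4b in germ-free and 0.0951 to 0.217 times in humanized mice. How shared reads were split between them is not given in the sources used here.

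The genes of the 3 chains of C1q, the recognition molecule of the classical pathway, lie side by side on chromosome 4 in the order C1qb (chr4:136880129-136886187), C1qc (chr4:136889804-136893065) and C1qa (chr4:136895917-136898803). C1qa stood at 21.7, 20.7, 24.1, 26.0 and 25.5 RPKM in the germ-free mice and ranged from 4.59 to 31.3 in the humanized mice, with a median of 22.1. C1qb stood at 13.6, 12.6, 17.1, 17.0 and 16.3 RPKM in germ-free mice and ranged from 2.69 to 19.5 with a median of 11.9 in humanized mice. C1qc stood at 8.15, 8.15, 9.20, 11.04 and 8.97 RPKM in germ-free mice and ranged from 1.52 to 10.9 with a median of 6.84 in humanized mice. The germ-free mice lay close together for each chain, and the humanized mice spread to both sides of them for C1qa and C1qb.

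None of the 3 chains passed the test. The mean was 23.6 ± 2.31 against 19.7 ± 9.33 RPKM for C1qa (LFC −0.26 ± 0.34 SE, FDR 0.624), 15.3 ± 2.08 against 11.6 ± 5.68 RPKM for C1qb (LFC −0.40 ± 0.34 SE, FDR 0.428) and 9.10 ± 1.18 against 6.50 ± 3.24 RPKM for C1qc (LFC −0.49 ± 0.34 SE, FDR 0.324), with n = 5 and n = 6 and FDR by edgeR's exact test. The spread was wider than in germ-free mice for all 3, with a coefficient of variation of 47.4%, 49.0% and 49.9% in the humanized mice against 9.80%, 13.6% and 12.99%. Without humanized mouse 5 it was 28.1%, 30.5% and 31.9%. The LFC without that mouse was −0.055 for C1qa, −0.20 for C1qb and −0.28 for C1qc (FDR 0.861, 0.495 and 0.317). The ratio of C1qb to C1qc in RPKM was 1.54 to 1.86 in germ-free and 1.58 to 1.96 in humanized mice. That of C1qa to C1qc was 2.35 to 2.84 and 2.71 to 3.89, with humanized mouse 6 at 3.89 and the other 5 humanized mice at 3.03 or below. Both ratios were chosen after the values were seen and are given as a description.

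Humanized mouse 5 had the lowest C1q of all 11 mice, at 19.5%, 17.6% and 16.6% of the germ-free mean for C1qa, C1qb and C1qc, and the lowest C3 and C4b. Its summed fibroblast markers stood at 8.10%, its endothelial markers at 12.4% and its macrophage markers at 55.4% of the germ-free mean, or at 27.1% with Lyz2 and Mertk left out. In the same mouse Cfb, at 94.1% of the germ-free mean, and Cd55 were higher than in any other humanized mouse. Humanized mouse 3 was the reverse for C1q, C4b and Cfb, with C1q chains at 133%, 127% and 120% of the germ-free mean, the highest C4b of all mice and the lowest Cfb, at 56.2%. Its fibroblast and endothelial markers were the highest of the humanized mice, at 63.9% and 89.1% of the germ-free mean, and its macrophage markers were the highest of all 11, at 147%. Cd55 was not reversed there, at 79.0% of the germ-free mean, and was lowest in humanized mouse 6, at 62.8%.

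**Figure D2:**
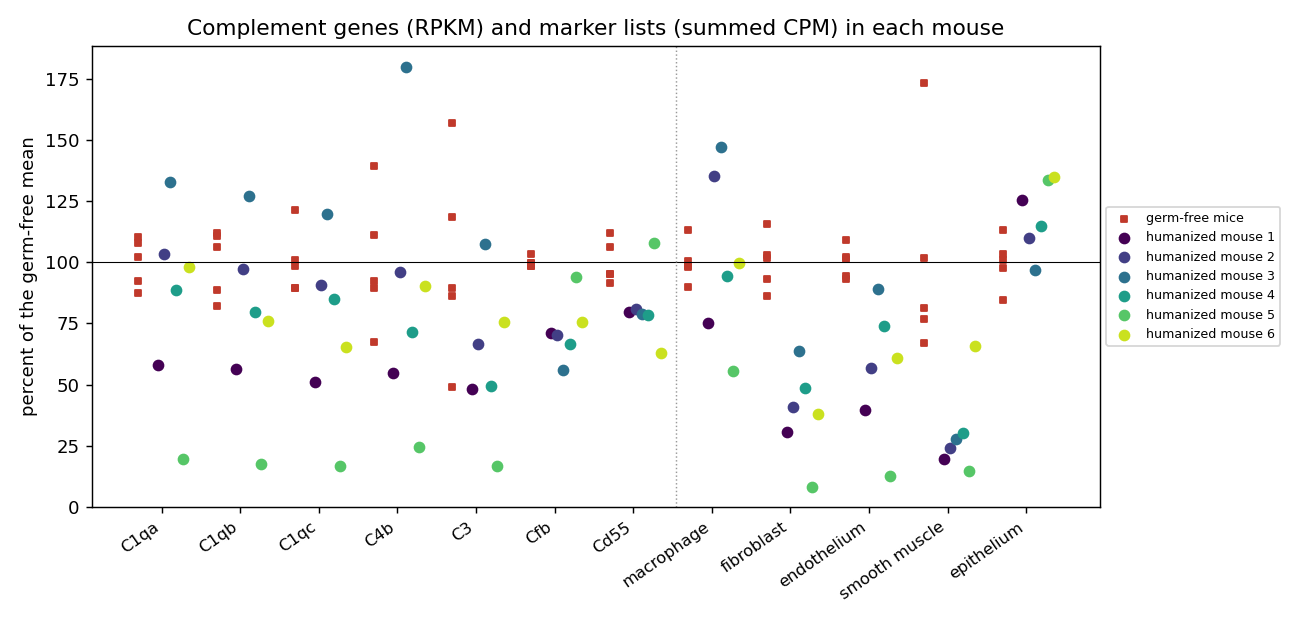
Level of complement genes and of summed marker lists in each mouse as a percent of the germ-free mean (linear axis). In humanized mouse 5 the C1q chains stand below 20% and the fibroblast markers at 8.10%, while Cfb stands at 94.1%, and in humanized mouse 3 the order is turned, with C1qa at 133% and Cfb at 56.2%.

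Markers of other cell types differed between the groups beside these values. Of 10 fibroblast markers 8 were lower and none higher, and the summed level was 1588 to 2133 CPM in germ-free and 149 to 1178 CPM in humanized mice, without overlap. All 11 smooth muscle markers were lower, at 1186 to 3063 against 263 to 1166 CPM in sum. Of 12 macrophage markers, Mrc1 and Cd163 were lower and Mertk higher, and the sums overlapped at 249 to 314 and 154 to 408 CPM. Of these 12 genes 9 had an LFC below 0, with a median of −0.38. With libraries scaled to them the LFC was 0.11 for C1qa, −0.04 for C1qb and −0.12 for C1qc, and none passed (FDR 0.776, 0.921 and 0.732). The summed CPM of the C1q chains over that of the 12 markers was 0.196 to 0.225 in germ-free and 0.0692 to 0.191 in humanized mice, without overlap, but Lyz2 and Mertk made up 53.7% to 57.3% of the marker sum in germ-free and 64.3% to 77.9% in humanized mice. Over the other 10 markers, a set trimmed after the values were seen, the ratio was 0.425 to 0.491 in germ-free mice, 0.313 in humanized mouse 5 and 0.521 to 0.610 in the other 5 humanized mice. The direction of C1q relative to macrophage markers thus turned with the genes summed. None of 6 endothelial markers passed, though the sums, 120 to 140 against 15.98 to 115 CPM, did not overlap. Of 11 epithelial markers 3 were higher and none lower, and of 6 markers of B and plasma cells 3 were higher, at 23.4 to 111 against 153 to 1054 CPM in sum. Of the adipocyte list 1 of 4 tested genes was lower, and of the mesothelial list neither tested gene passed. The part of these lists in the levels of the complement genes was not tested.

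Cfi (chr3:129836739-129875328) encodes factor I, the plasma protease that inactivates C3b and C4b. Only 1, 2, 0, 4 and 3 reads were counted in the germ-free mice and 0, 0, 0, 1, 0 and 0 in the humanized mice. A count of 0 allows up to 3 reads, which correspond to 0.0207 to 0.0277 RPKM in the germ-free and 0.0289 to 0.0394 RPKM in the humanized mice, covering counting error only. In 10 of 11 mice the count was at or under that limit, so no fold change is given. The RPKM values gave a two-sided exact permutation p of 0.0411, with the groups overlapping, on so few reads that no difference is read from it.

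Cd55 (chr1:130439027-130462744) encodes decay-accelerating factor, the membrane protein that takes C3 convertases apart on host cells. It stood at 8.96, 9.98, 8.62, 8.96 and 10.5 RPKM in the germ-free mice and ranged from 5.91 to 10.1 in the humanized mice, with a median of 7.45. Humanized mouse 5 lay within the germ-free range and the other 5 humanized mice lay below it. The mean was 9.41 ± 0.805 RPKM (SD, n = 5) against 7.66 ± 1.37 RPKM (SD, n = 6), which did not pass (LFC −0.30 ± 0.11 SE, FDR 0.0487; exact permutation p = 0.0476). Without humanized mouse 5 the LFC was −0.40 and passed (FDR 1.62e-04). It also passed with libraries scaled by total counts (LFC −0.49, FDR 2.94e-04) or by the epithelial markers (LFC −0.55, FDR 4.22e-04). These 2 scalings moved the median LFC of all genes too, to −0.18 and −0.25. The LFC of Cd55 turned to 0.54 with macrophage-marker scaling (FDR 0.250). With fibroblast-marker scaling it turned to 1.70 and passed as higher (FDR 0.00373), though below the median of all genes (1.83). Reads that Cd55 shares with other genes are few, with 4.15% of its 101-base windows in Cd55b and 2.1% of its exon bases in the antisense gene Gm16083, on a kit that does not keep strand.

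From mouse to mouse the members varied in sets. After centring log2 CPM within each group, Pearson's r over the 11 mice was 0.980 to 0.990 among the C1q chains, 0.936 between C3 and C4b, and 0.847 to 0.937 between these and the C1q chains. Cfb varied against the C1q chains, with r from −0.896 to −0.856, and so did Cd55, with r from −0.720 to −0.641. These values describe 11 libraries that share their scaling, and part of them rests on humanized mouse 5. Without it the C1q chains kept r of 0.894 to 0.945, C3 with C4b 0.851, C1q with C3 or C4b 0.579 to 0.908 and Cfb with C1q −0.685 to −0.531, while Cd55 with C1q was −0.0863 to 0.158.

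The genes most alike to each member were searched among 10384 genes on the same measure. For C1qc they were Dkk3 (r = 0.995), Col5a2 (0.994) and Sparc (0.993), for C1qa Gucy1b3 (0.992), Pcdh7 (0.991) and Col5a2 (0.989), and for C1qb Csf1 (0.994), Gucy1b3 (0.991) and Dkk3 (0.990). Among these, Col5a2 encodes a collagen chain, Sparc a matrix-associated glycoprotein and Csf1 the growth factor of macrophages. For C3 they were Dcn (0.968), Map1b (0.960) and Tgm2 (0.959), and for C4b Clec3b (0.983), Pea15a (0.979) and F13a1 (0.971). For Cfb they were Gm20547 (0.986), which shares its exons, Gabarapl2 (0.982) and Tmem19 (0.980), and for Cd55 Gm13008 (0.934), Slc45a3 (0.933) and Aebp2 (0.917). For Cfd the closest were Pja2 (0.897), AI987944 (0.868) and Fbxo30 (0.834). All 11 mice entered this search, which was not repeated without humanized mouse 5, so the order of genes may rest in part on that mouse.

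The rest of the pathway was taken from a list of 45 other complement genes by role, of which 37 were tested. Of these, 8 were lower (10.1% of all genes were), 2 were higher (9.20% of all genes were) and 27 did not pass. The LFC was below 0 for 25 of the 37, with a median of −0.45 beside 0.01 over all genes. The groups did not overlap for 10 of the 37, beside 18.4% of all genes. No read was counted in any mouse for Mbl1, Mbl2, Fcnb and C8b. Without humanized mouse 5 the calls, 10 in all, came to 14. Without germ-free mouse 4 they came to 7, and Colec10, Colec12 and Cd59a no longer passed.

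**Figure D3:**
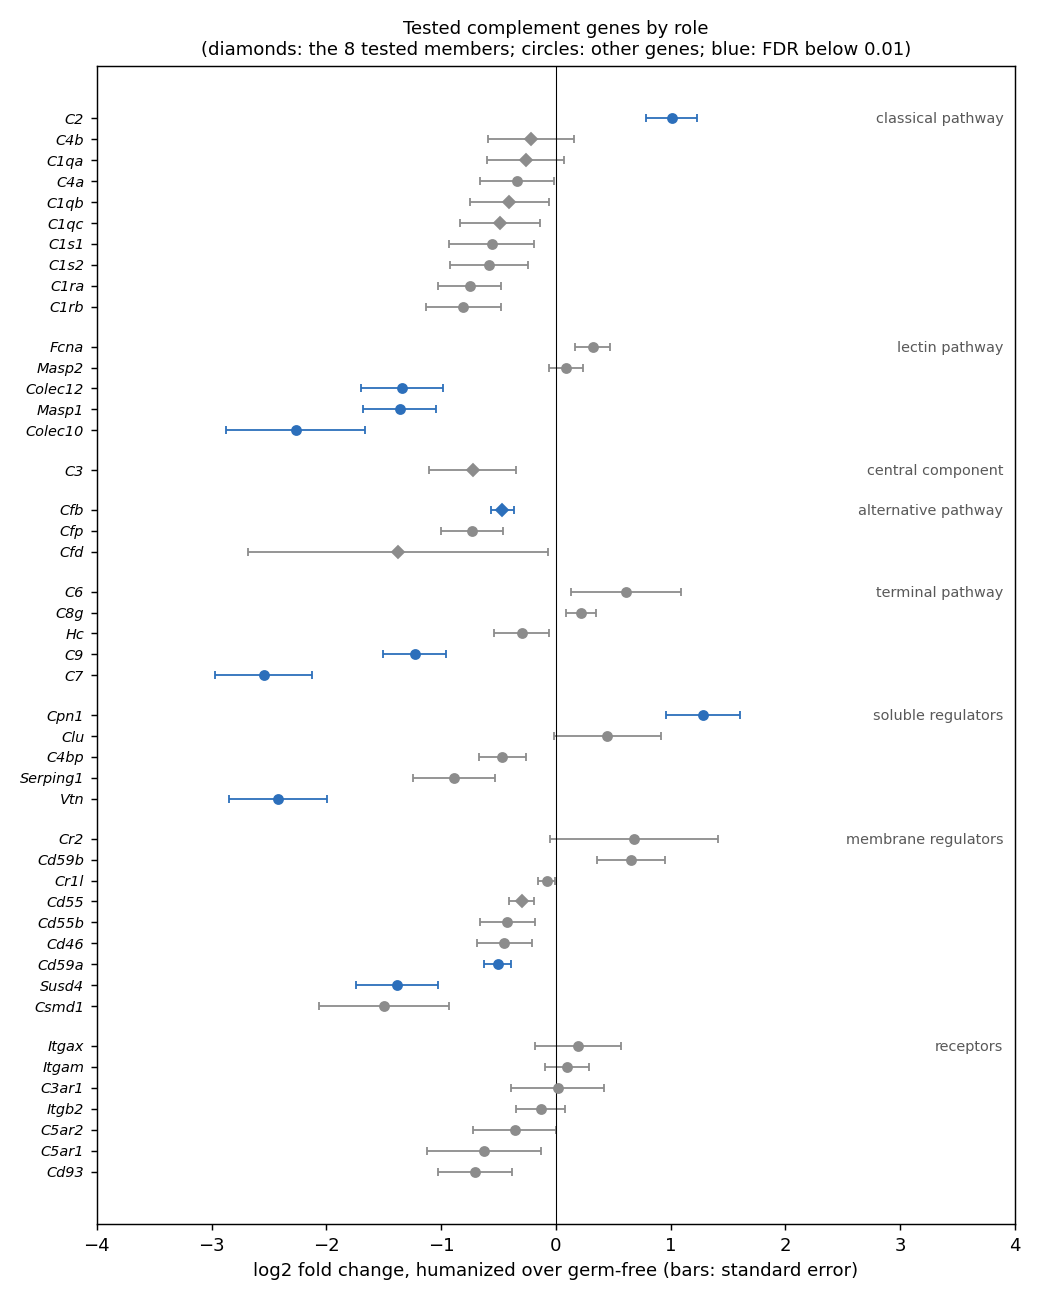
LFC (humanized over germ-free, log2) with its standard error for the tested complement genes, ordered by role, with genes at FDR below 0.01 marked. The 9 lower genes include Cfb, C7 and Vtn, and C2 and Cpn1 are the 2 to the right of 0 that passed.

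In the classical pathway C2 rose, as given with Cfb, and the other 5 tested genes did not pass. The one with the highest level was C1s1, the protease that cleaves C4 and C2. It went from 13.4 ± 2.23 to 9.13 ± 4.45 RPKM (LFC −0.56, FDR 0.280). Of the 5 tested genes listed under the lectin pathway 3 fell, beside 10.1% of all genes, and none rose. These were the collectins Colec10 (LFC −2.27 ± 0.60 SE, FDR 0.00198) and Colec12, which also acts as a scavenger receptor, and the protease gene Masp1 (LFC −1.36 ± 0.32 SE, FDR 1.81e-04). Colec12 went from 5.16 to 2.04 RPKM (LFC −1.34 ± 0.36 SE, FDR 0.00174). Levels of the other 2 were low. Colec10 had a mean of 0.538 against 0.111 RPKM, with 2 to 44 reads in the humanized mice and overlapping groups. Masp1 had a mean of 0.312 against 0.122 RPKM, with 5 to 20 reads in the humanized mice. With edgeR's quasi-likelihood test Colec10 and Colec12 did not pass (FDR 0.0151 and 0.0149), and with fibroblast-marker scaling none of the 3 passed, at an LFC of −0.93 for Colec10 (FDR 0.0679), 0.01 for Colec12 and 0.02 for Masp1. With macrophage-marker scaling Colec12 (LFC −0.96, FDR 0.0229) and Masp1 (LFC −0.93, FDR 0.0556) did not pass. Masp2, the protease gene with the highest level in that pathway, stood at 6.97 against 7.41 RPKM (LFC 0.09, FDR 0.746). In the alternative pathway the only other gene listed was Cfp, which encodes the stabilizer properdin, at 4.12 against 2.48 RPKM (LFC −0.73, FDR 0.0401).

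Among the terminal components, which form the membrane pore, C7 and C9 fell, 2 of 5 tested beside 10.1% of all genes, and 3 others did not pass. C7 stood at 4.71, 1.02, 3.50, 5.57 and 3.33 RPKM in the germ-free mice and ranged from 0.225 to 0.873 in the humanized mice. All humanized mice were below all germ-free mice, and the mean fell from 3.63 ± 1.72 to 0.621 ± 0.276 RPKM (LFC −2.55 ± 0.42 SE, FDR 1.59e-07). With fibroblast-marker scaling the LFC of C7 was −1.09 and did not pass (FDR 0.0139). The fall of C9 was smaller, from 0.269 to 0.435 RPKM in germ-free mice to 0.0743 to 0.206 RPKM in humanized mice (LFC −1.23 ± 0.27 SE, FDR 1.71e-04). It did not pass with macrophage-marker scaling (LFC −0.43, FDR 0.468) and stood at an LFC of 0.72 with fibroblast-marker scaling (FDR 0.205).

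Of 5 tested soluble regulators, 1 was lower, 1 was higher and 3 did not pass, beside 10.1% lower and 9.20% higher among all genes. Vtn, which encodes vitronectin, an inhibitor of the terminal complex and a matrix protein, fell (LFC −2.42 ± 0.43 SE, FDR 4.97e-07), but did not pass with fibroblast-marker scaling (LFC −1.12, FDR 0.0196). The level of Vtn was low, at a mean of 0.558 against 0.102 RPKM, with 2 to 17 reads in the humanized mice. Cpn1 rose from 2.19 to 5.33 RPKM (LFC 1.28 ± 0.32 SE, FDR 9.52e-04), though not at the threshold with the quasi-likelihood test (FDR 0.0116). It encodes the catalytic subunit of carboxypeptidase N, which trims the anaphylatoxins C3a and C5a. Serping1, which encodes the C1 inhibitor, had the highest level of the role and went from 25.7 ± 5.36 to 13.9 ± 6.32 RPKM without passing (LFC −0.88, FDR 0.0494).

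Of 8 tested membrane regulators, Cd59a and Susd4 fell, beside 10.1% of all genes, and none rose. Cd59a, which blocks the terminal pore and had the highest mean level over the 11 mice among these 8 genes, Cd55 not counted, went from 7.03 ± 0.993 to 4.95 ± 0.608 RPKM, without overlap (LFC −0.51 ± 0.11 SE, FDR 0.00247). Within the humanized mice Cr1l stood higher, at 5.59 RPKM. The LFC of Cd59a turned to 0.22 with macrophage-marker scaling (FDR 0.602) and to 1.33 with fibroblast-marker scaling (FDR 0.00873), below the median of all genes in both cases. Susd4 fell from 0.119 to 0.263 RPKM in germ-free mice to 0.0362 to 0.159 RPKM in humanized mice (LFC −1.39 ± 0.36 SE, FDR 0.00125). It did not pass with the quasi-likelihood test (FDR 0.0130) or with macrophage-marker scaling (LFC −0.84, FDR 0.112), and its LFC was 0.19 with fibroblast-marker scaling. None of 7 tested receptor genes passed. The one with the highest level was Itgb2, a chain of the complement receptors of leukocytes, at 2.70 against 2.47 RPKM (LFC −0.13, FDR 0.732).

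The direction of several members depended on what the libraries were scaled to. Scaled to the 10 fibroblast markers, the median LFC of all genes moved to 1.83, and the 8 tested members stood between 0.67 and 1.70, all below that median. Scaled to the 12 macrophage markers, the median of all genes moved to 0.73, and C4b, C1qa, Cfb and Cd55 stood at 0.16, 0.11, 0.38 and 0.54. Under total counts and under scaling to epithelial markers the median moved to −0.18 and −0.25, and the LFC of Cfb was −0.66 and −0.75. Under each of these 4 scalings every tested member stayed below the median of all genes, whereas the sign of its LFC turned with the fibroblast markers.

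**Figure D4:**
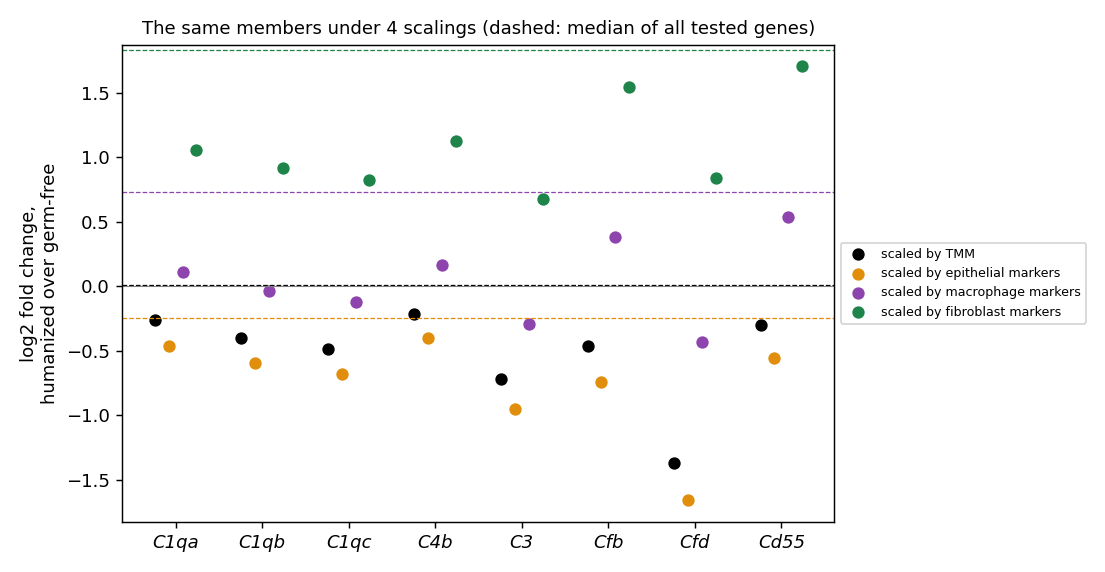
LFC (humanized over germ-free, log2) of the tested members with libraries scaled by TMM or by epithelial, macrophage or fibroblast markers, with the median LFC of all tested genes under the same scaling as a dashed line. The members lie on both sides of 0 with the scaling chosen, from −1.66 for Cfd with epithelial markers to 1.70 for Cd55 with fibroblast markers, and the median of all genes runs from −0.25 to 1.83.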

How the data were processed

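Colonic polyA RNA of 5 germ-free and 6 humanized mice was sequenced as 101 bp paired reads with a TruSeq kit that does not keep strand. Per the labels, the processing named TopHat2 2.1.0, Bowtie2 2.2.3, featureCounts of Subread 1.4.6-p5 and mm10. The authors deposited raw read counts per gene in 1 table, with gene positions and lengths. How reads in overlapping genes were assigned is not given in the sources used here. The annotation used for overlaps (GENCODE M21, GRCm38) may be another release.

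Tests were run with edgeR 4.0.16 under R 4.3.3: filterByExpr at its defaults (minimum count 10, total 15), TMM (factors 0.876 to 1.12), the exact test and Benjamini-Hochberg correction over 19863 genes, called at FDR below 0.01. Standard errors came from the quasi-likelihood fit. RPKM used TMM-scaled libraries and deposited lengths. The test was tried on simulated data, but the outcome is not given here and no statement rests on it. Mice are separate animals.

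The members, the list of other complement genes, the marker lists and the motifs were chosen with earlier results of these data known. Named are all members, other complement genes at FDR below 0.01, the one with the highest mean RPKM in each role, and the 3 genes most alike to each member (mean CPM at least 10, log2 CPM with prior count 2). Alternatives were the quasi-likelihood test, DESeq2 1.42.0, RLE, total counts, epithelial-marker scaling, other filters and thresholds, leaving out each mouse, and a replicate block. Scaling to fibroblast and macrophage markers was added after seeing the data for counts of calls. For the LFC of members it should not be taken as planned in advance. All mice were used. Some complement genes are not reported here.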

Additional observations from a re-analysis of the deposited data

Results flagged for a closer look

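In 2 of the 18 groups of values of the 9 members, 1 mouse stood apart from the rest of its group by Dixon's criterion. Chance meets it in about 1 in 20 groups where values are normally distributed. For Cfd, germ-free mouse 4 stood at 17.75 RPKM, where the next germ-free mouse stood at 0.527 RPKM. For Cfi, humanized mouse 4 stood at 0.0124 RPKM, which is 1 read, where the other 5 humanized mice had none. With those 5 at 0, any read in the remaining mouse meets the criterion, so the rate of 1 in 20 does not apply to this group.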

How the results depend on the processing

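The number of members called was 1 and became 2 with total counts, with epithelial-marker scaling and at FDR below 0.05, 3, all higher, with fibroblast-marker scaling, and 0 with macrophage-marker scaling, with an absolute LFC above 1 and with the replicate block. Leaving out each mouse gave 1 to 2, the second being Cd55 without humanized mouse 5. The number of members whose groups did not overlap was 1, became 2 with CPM of total counts, and was 1 to 2 with each mouse left out, 2 without humanized mouse 5. The 10 calls among the other complement genes became 6 with the quasi-likelihood test, where Colec10, Colec12, Susd4 and Cpn1 no longer passed, 5 with at least 10 counts in every mouse, 5 with macrophage-marker scaling (3 lower, 2 higher) and 19 with fibroblast-marker scaling (0 lower, 19 higher, beside 8 lower and 2 higher with TMM), and 1 with the replicate block, which needs the quasi-likelihood test (6 without the block). They were 7 to 14 with each mouse left out, 7 without germ-free mouse 4 and 14 without humanized mouse 5.

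With fibroblast-marker scaling the LFC was 0.67 for C3, 1.13 for C4b, 1.06 for C1qa, 0.91 for C1qb, 0.82 for C1qc, 1.55 for Cfb, 0.84 for Cfd and 1.70 for Cd55, and with macrophage-marker scaling 0.16 for C4b, 0.11 for C1qa, 0.38 for Cfb and 0.54 for Cd55. The median of all genes moved with the scaling by construction, and calls over all genes went from 1827 higher and 1999 lower to 15770 and 39 with fibroblast, 822 and 390 with macrophage and 519 and 3394 with epithelial markers, and 773 and 3609 with total counts. The LFC of Cfd was −1.74 to 3.04 with each mouse left out, 3.04 without germ-free mouse 4, and 1.61 with the replicate block, and the cause of the last was not tested. DESeq2 and the filter of at least 10 counts gave no value for Cfd.

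Mice with the same number are different animals and were not paired: deviations of same-numbered mice correlated at −0.133 to 0.0910, and 3 of 10 mice correlated best with their own number. With the quasi-likelihood test, calls over all genes were 2699 without and 1012 with the replicate block, beside 3826 by the exact test, and for Cfb the LFC was −0.47 (FDR 0.00558) without and −0.50 (FDR 0.0177) with it.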
